A study of Mus musculus with 12 samples.

Results

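Cortex of adult mice labelled KO for Tet1 was compared with cortex labelled HxD for Tet1, by RNA sequencing of 4 libraries of each. The comparison took every gene symbol that stands on 1 row of the count table, 21713 genes in all, and is described here through the genes with graded levels in all 8 libraries of the 12 in the series. Graded means that a gene passed the filter on low counts, was above 0 in each of the 8 libraries, spanned less than 8-fold between libraries within each genotype, and had genotype means less than 8-fold apart. Of 11693 genes that passed the filter, 9345 were graded, while 1727 were at 0 in at least 1 of the 8 libraries and 621 passed a fold limit. Just inside the limit lay Pex2 with a within-genotype range of 7.99-fold, and just outside it Nat8f1 and Rnf123 with 8.01-fold.

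All groups came from whole cortex of adult animals, from which poly(A) RNA was selected. The labels give each group by its Tet1 genotype alone, WT, HxD or KO, with 4 libraries each, and say nothing of strain, sex, exact age or how the alleles were made. Per its title, the study is about what TET1 does with and without its catalysis. HxD is the name of the motif of histidine and aspartate with which TET enzymes bind their iron, so KO against HxD asks how the cortex differs between 2 Tet1 mutants. Whether each library is 1 animal is not stated in the labels, and the p-values reflect library-to-library spread that may be partly technical.

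TET enzymes oxidise 5-methylcytosine in DNA, a first step toward removing the methyl group, and they need iron and 2-oxoglutarate to do so. Apart from this activity, TET1 binds chromatin regulators such as the SIN3 co-repressor and Polycomb complexes. The adult cortex mixes excitatory neurons, interneurons, astrocytes, oligodendrocytes, microglia and vessel cells, and a bulk library reports the sum over them.

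Deposited estimated counts summed to between 7767787 and 10347432 per HxD library and between 5791642 and 9535409 per KO library. Log2 levels of tested genes, as counts scaled to library size (CPM), correlated at 0.869 to 0.900 between HxD libraries, at 0.882 to 0.891 between KO libraries and at 0.834 to 0.875 between the genotypes (Pearson's r across genes, which are not independent replicates). Tet1 had 1, 0, 63 and 67 estimated counts in HxD 1 to 4 and was listed at 0 in every KO and WT library, so it does not check the labels. Gapdh, which every cell uses, and Tet3 were listed at 0 in all 12 libraries, so a 0 in this table cannot be read as low expression. Slc17a7, the glutamate transporter of cortical excitatory neurons, stood at 2554 ± 351 CPM in HxD and 2108 ± 196 in KO (SD, n = 4). The HxD libraries differed among themselves, and 31 tested myelin genes summed to 3461, 7521, 3011 and 4595 CPM in HxD 1 to 4. HxD 2 was the highest and HxD 1 and HxD 3 were the lowest, and the medians of many lists are also given without HxD 1 and HxD 3 or without HxD 2 and HxD 4. HxD 1 also held 247 CPM of Ttr, the transthyretin of choroid plexus, against 1.07 to 31.3 in the other HxD libraries and up to 3.94 in KO.

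Between KO and HxD, 119 of 11693 tested genes passed an adjusted p below 0.05 (1.02%), 52 higher in KO (0.445%) and 67 lower (0.573%). All 12 libraries entered the quasi-likelihood F test of edgeR, with the Benjamini-Hochberg adjustment over all tested genes. Only 31 of these genes were graded, 0.332% of the 9345 graded genes, with 14 higher in KO (0.15%) and 17 lower (0.182%). The median log2 fold change over all graded genes was 0.01, the median size of the change was 0.18, and 243 graded genes (2.60%) differed by more than 2-fold. At an unadjusted p below 0.05, 1104 graded genes stood out (11.8%), 568 higher (6.08%) and 536 lower (5.74%). The 4 KO libraries lay apart from the 4 HxD libraries, with no overlap, for 710 graded genes (7.6%), wholly above for 389 (4.16%) and wholly below for 321 (3.43%).

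The 31 graded calls were divided into 2 kinds by where the WT libraries lay, a rule that places every gene in either kind. On the log2(CPM + 0.5) scale the WT mean was nearer the HxD mean for 16 of them and nearer the KO mean for 15. With CPM means, a comparison added after the data were seen, the counts were 15 and 16, since Cadm1 and Camsap2 joined the second kind and Gpcpd1 the first. Over all graded genes, the WT mean on the log2 scale was nearer the HxD mean for 60.1%. The first kind was small in size, with a median absolute log2 fold change of 0.78, and 11 of the 16 differed by less than 2-fold. The second kind had a median of 2.26, and 1 of the 15 differed by less than 2-fold. WT libraries overlapped the HxD libraries for 15 of the 16, and the KO libraries for 7 of the 15. Of the 15 genes, 4 have 1 curated RefSeq transcript, as do 7 of the 16 and 59.8% of graded genes. WT did not enter the rule that picks graded genes or the contrast, yet its libraries share the fit, so this is a description and not a test.

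**Figure D1:**
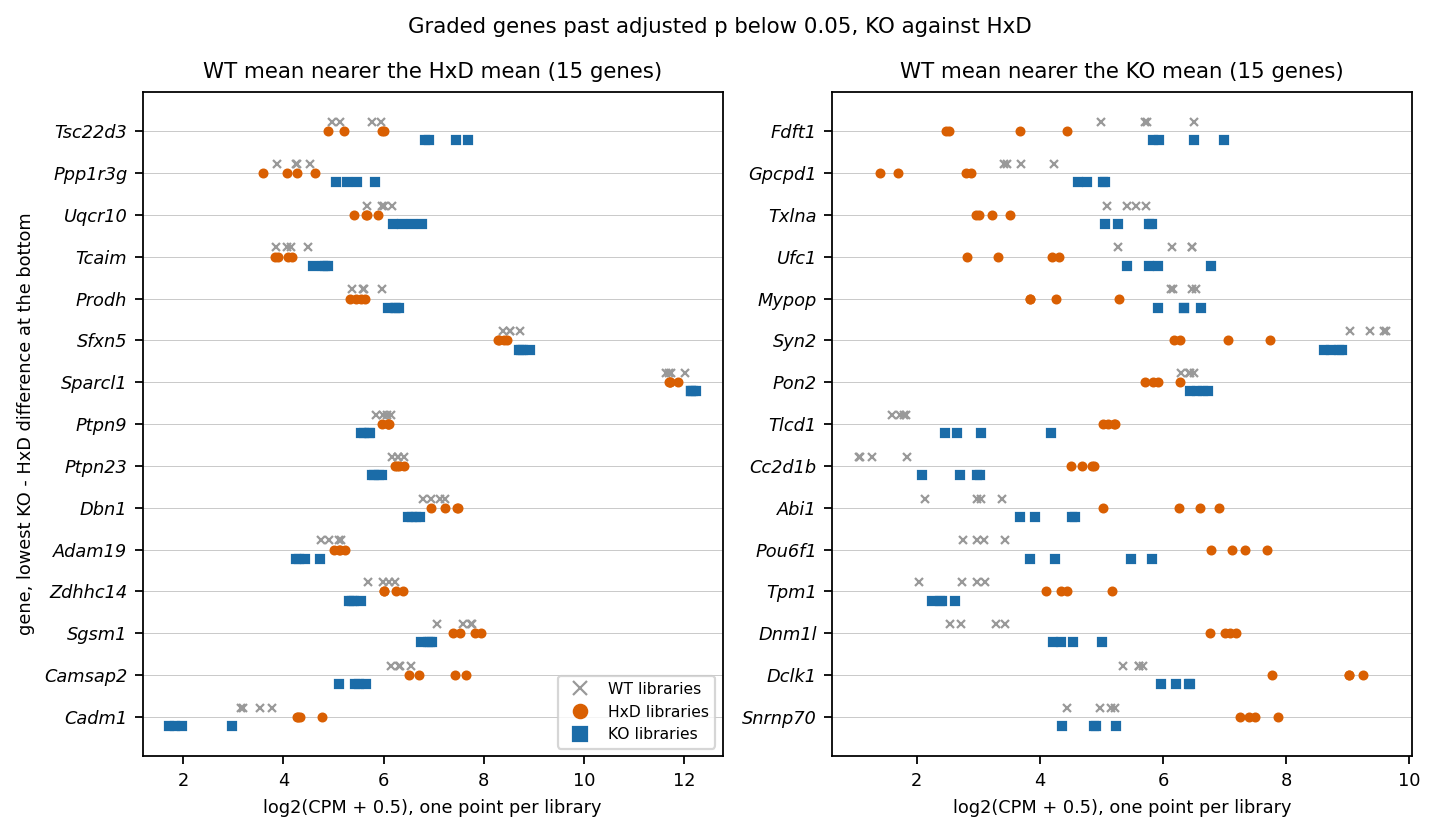
Log2(CPM + 0.5) of 30 of the 31 graded genes past the threshold in each of the 4 WT (crosses), 4 HxD (circles) and 4 KO (squares) libraries, ordered by the difference of KO from HxD. In the left panel the WT mean lies nearer the HxD mean on this scale for 15 genes, and in the right panel nearer the KO mean for 15 genes.

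In 7 graded genes KO rose while the WT mean lay nearer HxD. Prodh, the proline dehydrogenase of the inner mitochondrial membrane, stood at 43.3, 48.7, 39.6 and 46.2 CPM in HxD 1 to 4 and at 75.5, 79.2, 67.3 and 74.3 in KO 1 to 4. Every KO library lay above every HxD library and above every WT library, which reached 62.1. The log2 fold change was 0.74 ± 0.13 (SE, edgeR adjusted p = 0.0171). Uqcr10, a small subunit of the cytochrome bc1 complex, had 50.7, 58.5, 49.9 and 42.3 CPM in HxD and 108, 72.1, 82.6 and 94.3 in KO. Its log2 fold change of 0.83 ± 0.15 passed with an adjusted p of 0.0255. Sfxn5, a carrier of the mitochondrial sideroflexin family, rose from 329 ± 18.9 to 441 ± 30 CPM (SD, n = 4, adjusted p = 0.0387), although the highest WT library, at 422, lay within the KO range. Tcaim, another mitochondrial protein, rose from 15.6 ± 1.8 to 27 ± 2.34 CPM, with no overlap between the genotypes (adjusted p = 0.0438).

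Sparcl1, the matricellular protein hevin that astrocytes secrete at synapses, was among the most abundant of the called genes. It stood at 3342, 3759, 3379 and 3307 CPM in HxD 1 to 4 and at 4482, 4828, 4622 and 4461 in KO 1 to 4. The 2 ranges did not overlap, and the log2 fold change was 0.42 ± 0.08 (SE, edgeR adjusted p = 0.0459). Ppp1r3g, a subunit that targets protein phosphatase 1 to glycogen, had 16.3, 18.8, 11.6 and 24.5 CPM in HxD and 56.7, 44.1, 37.9 and 32.6 in KO. It rose 2.4-fold (adjusted p = 0.0402). Tsc22d3, which encodes the glucocorticoid-induced leucine zipper protein GILZ, stood at 61.9, 36.8, 29.4 and 64.2 CPM in HxD and at 206, 173, 114 and 120.1 in KO. All 4 KO libraries were above all 8 others, and the change was 3.19-fold (log2 fold change 1.67 ± 0.33, adjusted p = 0.0397).

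The 9 graded genes that fell in KO with WT near HxD include genes of membranes and the cytoskeleton. Cadm1, a synaptic adhesion molecule of the immunoglobulin family, stood at 26.7, 18.7, 19.7 and 19.2 CPM in HxD and at 7.36, 2.81, 3.42 and 3.07 in KO. KO 1 was the highest of the KO libraries, and the genotypes did not overlap. The change was 5.06-fold (log2 fold change -2.34 ± 0.33, edgeR adjusted p = 0.00324), and WT lay between at 8.44 to 13.1 CPM. Camsap2, which binds the minus ends of microtubules, had 90.3, 199, 104 and 172 CPM in HxD and 45.4, 34.2, 42.8 and 49.5 in KO (log2 fold change -1.72 ± 0.24, adjusted p = 0.00384). HxD 2 and HxD 4 were the high libraries, and the difference was -1.17 where they were left out.

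Dbn1, the actin-binding drebrin of dendritic spines, stood at 178, 150.0, 177 and 123 CPM in HxD and at 89.4, 99.8, 105 and 95 in KO. It fell 1.61-fold without overlap (edgeR adjusted p = 0.0353). Zdhhc14, a palmitoyltransferase, fell 1.7-fold to 42.3 ± 3.07 CPM (SD, n = 4, adjusted p = 0.0179), and the metalloprotease Adam19 fell 1.61-fold to 21.3 ± 3.3 CPM (adjusted p = 0.0397). Ptpn23, a phosphatase-like protein of endosomal sorting, had 74.2, 78.2, 84.9 and 76.1 CPM in HxD and 55.8, 59.3, 54.3 and 62.4 in KO. Its log2 fold change of -0.43 ± 0.08 (adjusted p = 0.0215) was small and its libraries were tight. Ptpn9, a tyrosine phosphatase, and Sgsm1, a Rab GTPase regulator, fell by 0.42 and 0.80 on the log2 scale (adjusted p = 0.0403 and 0.0489). They rank below the genes that the naming rule takes and were chosen after their values were seen.

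Most of these 16 calls were near the threshold, with adjusted p-values over 0.01 for all but Cadm1 and Camsap2. Over 25 other settings the calls of Cadm1 and Camsap2 were never lost, while those of Zdhhc14 and Prodh were lost in 7 and 9, that of Uqcr10 in 11 and that of Sfxn5 in 19. Tsc22d3, Tcaim and Sparcl1 each lost theirs in 17.

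For the other 15 graded calls the HxD libraries stood apart while WT and KO lay closer together. Snrnp70, the U1 small nuclear ribonucleoprotein subunit of the spliceosome, stood at 168, 234, 181 and 152 CPM in HxD 1 to 4 and at 28.9, 20, 29.6 and 37.4 in KO 1 to 4. The KO range met that of WT, 21.3 to 36.9, and the change was 6.34-fold (log2 fold change -2.66 ± 0.23, edgeR adjusted p = 8.8e-05). Dnm1l, the GTPase that divides mitochondria, had 128, 109, 145 and 136 CPM in HxD and 19.9, 18, 31.7 and 22.7 in KO, against 5.35 to 10.3 in WT (adjusted p = 2.0e-04). Dclk1, a doublecortin-like kinase on microtubules, had 523, 523, 217 and 607 in HxD and 62.2 to 85.9 in KO (adjusted p = 3.8e-04). Tpm1, an actin-binding tropomyosin, and Cc2d1b, an endosomal regulator, were 4.78-fold and 4.22-fold lower in KO (adjusted p = 0.00275 and 0.00282).

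On the higher side of this kind, Syn2, a synapsin of synaptic vesicles, stood at 213, 71.7, 133 and 77.3 CPM in HxD and at 392, 483, 466 and 425 in KO. WT reached 527 to 788, so the KO libraries lay between HxD and WT (log2 fold change 1.84 ± 0.31, edgeR adjusted p = 0.0172). Fdft1, squalene synthase, which commits farnesyl units to sterols, had 21.2, 12.3, 5.27 and 5.07 CPM in HxD and 60.8, 90, 127 and 56.9 in KO (adjusted p = 0.0233). Txlna, a syntaxin-binding taxilin, rose 5.24-fold to 45.4 ± 11.6 CPM (SD, n = 4, adjusted p = 1.3e-04). Gpcpd1, a glycerophosphocholine phosphodiesterase, rose 6.34-fold to 29 ± 4.31 CPM (adjusted p = 0.00438). The calls of Snrnp70, Dnm1l, Dclk1, Tpm1, Cc2d1b, Txlna and Gpcpd1 were kept in all 25 other settings, and those of Syn2 were lost in 3 and of Fdft1 in 8. How the table assigned reads to genes is not given in the sources used here, so these are differences in the table. Beyond the graded genes, 88 further genes were called, 56 of them at 0 in at least 1 of the 8 libraries. They include Clasp2, a microtubule plus-end protein, at 0 to 0.108 CPM in HxD and 301 to 379 in KO, and Klhdc2, a substrate receptor of a ubiquitin ligase, on the lower side.

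Genes are described next in 59 lists of function and cell type, of which 58 had at least 4 graded members. For each list the counts of members and the median log2 fold change are given beside those of all graded genes, 51.6% above 0 and a median of 0.01. Counts at an unadjusted p below 0.05 in edgeR stand beside 11.8% of all graded genes, 6.08% higher and 5.74% lower. Counts of members without overlap stand beside 7.6%, 4.16% higher and 3.43% lower. Calls within lists stand beside 31 of all 9345 graded genes called by edgeR, 26 by limma-voom and 237 by the DESeq2 Wald test. To score a list in a library, log2(CPM + 0.5) of each graded member was set relative to that gene's average in the 12 libraries, and the median was taken. The KO and HxD scores did not overlap for 7 of the 58 lists, 4 higher in KO and 3 lower. With 1 library left out, the sign of the median turned for 24 of the 58 lists, none of which had a median further from 0 than 0.15. The lists were chosen with earlier results of these data known, and no p is given for a list.

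**Figure D2:**
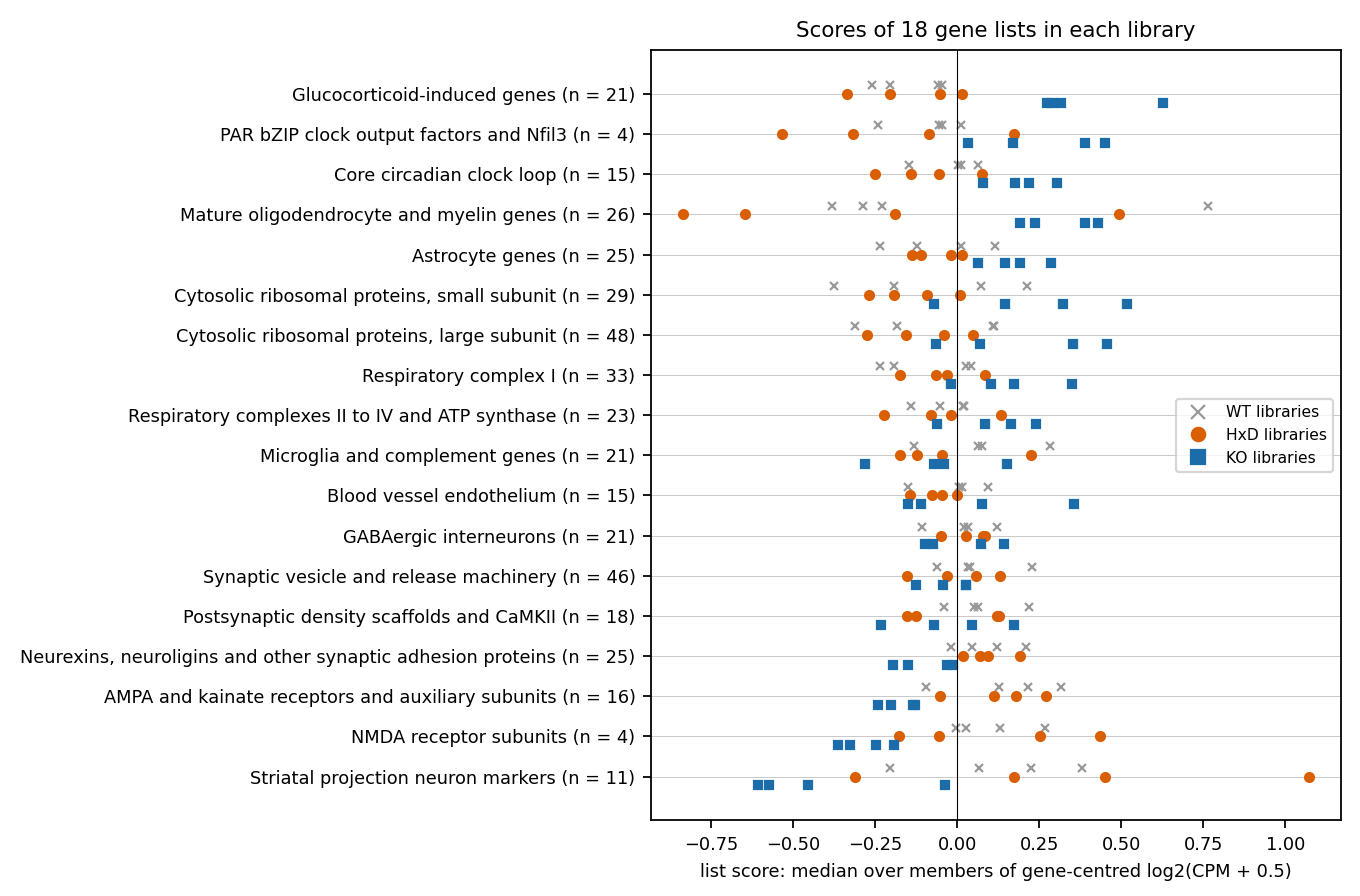
Score of 18 gene lists (log2 units) in each of the 4 WT, 4 HxD and 4 KO libraries, with the number of graded members in brackets. The glucocorticoid-induced list parts KO (0.27 to 0.63) from HxD (-0.34 to 0.01), whereas the myelin scores of HxD spread from -0.84 to 0.49 and enclose those of KO.

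Genes that glucocorticoids induce mostly lay higher in KO than in HxD. Glucocorticoid hormones bind the glucocorticoid receptor, which enters the nucleus and binds a palindromic element in DNA. Of 21 graded members, 17 lay above 0 with a median of 0.52, 12 had an unadjusted p below 0.05 in the higher direction and 0 in the lower, and 1, Tsc22d3, passed the threshold in edgeR and in limma-voom. The DESeq2 Wald test called 7, all higher, among them Sgk1, Per1, Cebpd and Klf15. The libraries did not overlap for 7 of the 21, all higher, against 7.6% of all graded genes in either direction. The scores were 0.01, -0.34, -0.20 and -0.05 in HxD 1 to 4 and 0.63, 0.32, 0.27 and 0.29 in KO 1 to 4, and WT lay at -0.26 to -0.05. KO 1 was the highest of the KO libraries, and the median was 0.39 without it, with 18 of 21 above 0.

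Beside Tsc22d3, further members that stood higher in KO are given here, chosen after their values were seen and not by size alone. Sgk1, a kinase that controls ion channels and transporters, stood at 29.1, 27.2, 42.5 and 58.6 CPM in HxD and at 209, 106, 65.9 and 136 in KO. The libraries did not overlap, yet the KO values spread from 65.9 to 209, and the log2 fold change of 1.71 ± 0.48 had an edgeR adjusted p of 0.212. Klf15, a transcription factor of amino acid metabolism, had 42.3, 34.7, 31.6 and 38.3 CPM in HxD and 74.7, 87.4, 56.3 and 52.6 in KO, and its adjusted p of 0.0508 just missed the threshold. Cebpd, a transcription factor of the C/EBP family, stood at 15.3, 8.19, 11.9 and 8.39 CPM against 24.7, 26.9, 19.7 and 18.8 (adjusted p = 0.0997). Nfkbia, the inhibitor of NF-kappa-B, stood at 39.5 ± 2.95 against 58.9 ± 7.03 CPM, and Ddit4, an inhibitor of mTOR signalling, at 71 ± 18.4 against 115 ± 12.5 (SD, n = 4). Other members did not move with them. Mt1, a metallothionein, had a log2 fold change of 0.12 ± 0.41, and Zbtb16, Cdkn1a, Bcl6 and Tsc22d1 lay at or below 0.

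Promoter windows of 300 bases, 250 before to 50 after an annotated start, were searched on both strands for the receptor's response element, GNACANNNTGTNC, and for the E-box CACGTG that clock factors bind. The windows are those of RefSeq on GRCm38.p6, and 19 of the 21 genes had at least 1. The response element was in 3 of the 34 windows of these genes (8.82%), against 0.475% of the 32851 windows in the table. Its 3 holders were Sgk1 with GAACAGAATGTTC, Map3k6 with GCACAGGCTGTTC and Mt1 with GGACATGATGTTC. These begin 188, 181 and 94 bases before the annotated start of the window that holds them. Sgk1 has other annotated starts whose windows lack the element, among them chr10:21994416-21994715. The E-box was in 5 of the 34 windows (14.7%), against 7.15% of all windows, and Klf15 held it 3 times. For the core clock list the E-box was in 4 of 15 windows (26.7%). A match is a description of the letters and not a bound site. The windows of Sgk1 (chr10:21993640-21993939), Map3k6 (chr4:133240568-133240867), Klf15 (chr6:90462326-90462625) and Per1 (chr11:69098699-69098998), all on the plus strand of GRCm38.p6, are shown as holders of the response element (Sgk1 and Map3k6) or the E-box (Sgk1, Klf15 and Per1), with both in capitals.
Sgk1: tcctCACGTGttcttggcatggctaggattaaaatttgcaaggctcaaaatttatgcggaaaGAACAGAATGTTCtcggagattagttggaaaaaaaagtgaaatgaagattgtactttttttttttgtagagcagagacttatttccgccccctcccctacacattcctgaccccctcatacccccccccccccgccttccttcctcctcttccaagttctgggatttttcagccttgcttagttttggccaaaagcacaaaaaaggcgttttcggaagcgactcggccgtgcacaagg
Map3k6: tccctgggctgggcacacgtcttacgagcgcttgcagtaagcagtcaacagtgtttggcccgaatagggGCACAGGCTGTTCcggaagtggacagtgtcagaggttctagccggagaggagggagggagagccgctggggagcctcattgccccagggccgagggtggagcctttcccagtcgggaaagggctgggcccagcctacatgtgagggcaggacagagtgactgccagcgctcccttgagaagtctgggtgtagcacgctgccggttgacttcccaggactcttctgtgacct
Klf15: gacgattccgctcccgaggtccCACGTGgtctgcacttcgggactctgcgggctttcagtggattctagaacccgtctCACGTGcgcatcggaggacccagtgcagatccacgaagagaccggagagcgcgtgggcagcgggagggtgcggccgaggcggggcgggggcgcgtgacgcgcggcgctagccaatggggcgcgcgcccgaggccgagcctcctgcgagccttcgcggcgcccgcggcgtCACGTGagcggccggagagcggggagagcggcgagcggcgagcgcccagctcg
Per1: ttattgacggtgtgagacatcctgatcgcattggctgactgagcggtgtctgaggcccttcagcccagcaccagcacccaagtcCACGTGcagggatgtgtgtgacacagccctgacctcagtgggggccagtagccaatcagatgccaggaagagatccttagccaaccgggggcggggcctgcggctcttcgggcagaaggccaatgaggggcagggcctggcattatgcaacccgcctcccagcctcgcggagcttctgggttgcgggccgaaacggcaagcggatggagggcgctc

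Of the shown genes, Map3k6, a kinase of the MAP kinase cascade, holds the response element but stood at 4.33 ± 1.22 CPM in HxD and 8.43 ± 3.5 in KO with overlapping libraries (SD, n = 4, edgeR adjusted p = 0.3). Mt1 holds it too, and its HxD libraries spread widely, 149.7 ± 107 CPM against 163 ± 26.8 in KO. Tsc22d3, the member that passed the threshold, has no match to it among the windows searched.

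Clock genes also mostly lay higher in KO. In the circadian loop CLOCK and BMAL1 drive PER, CRY and REV-ERB genes through E-boxes, and the products repress the loop in turn. Of 15 graded members, 11 lay above 0 with a median of 0.29, 5 had an unadjusted p below 0.05, all higher, and 0 passed the threshold in edgeR or limma-voom against 3 in DESeq2 (Per1, Nr1d2 and Bhlhe41). Per1 stood at 93.7, 104, 71.3 and 124 CPM in HxD and at 329, 236, 168 and 186 in KO (log2 fold change 1.23 ± 0.29, edgeR adjusted p = 0.113). Glucocorticoids induce Per1 too, and it stands in both lists. Nr1d2, the repressor REV-ERB beta, stood at 122, 156, 115 and 184 CPM against 199.9, 213, 211 and 189, and Bhlhe41, a repressor of the loop, at 69.4, 65.1, 71.8 and 60.1 against 89.7, 105, 97.2 and 87. Neither overlapped (adjusted p = 0.237 and 0.216). Per2 went the other way, with a log2 fold change of -0.23 ± 0.29.

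Dbp, the best known output factor of the clock, stood at 140.2, 106, 77.6 and 108 CPM in HxD and at 191, 245, 219.9 and 187 in KO. Its libraries did not overlap (log2 fold change 0.96 ± 0.22, edgeR adjusted p = 0.104). The list of PAR bZIP output factors also holds Nfil3, and all 4 graded genes of the list lay above 0, with a median of 0.41. That median was 0.19 with 3 of 4 above 0 without HxD 1 and HxD 3, and 0.74 without HxD 2 and HxD 4. The scores of this list overlapped between the genotypes. For the clock loop the median was 0.05 without HxD 1 and HxD 3, with 11 of 15 above 0, and 0.43 without HxD 2 and HxD 4. It was 0.15 without KO 1 and 0.45 without HxD 4. The hour at which tissue was taken is not in the labels.

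**Figure D3:**
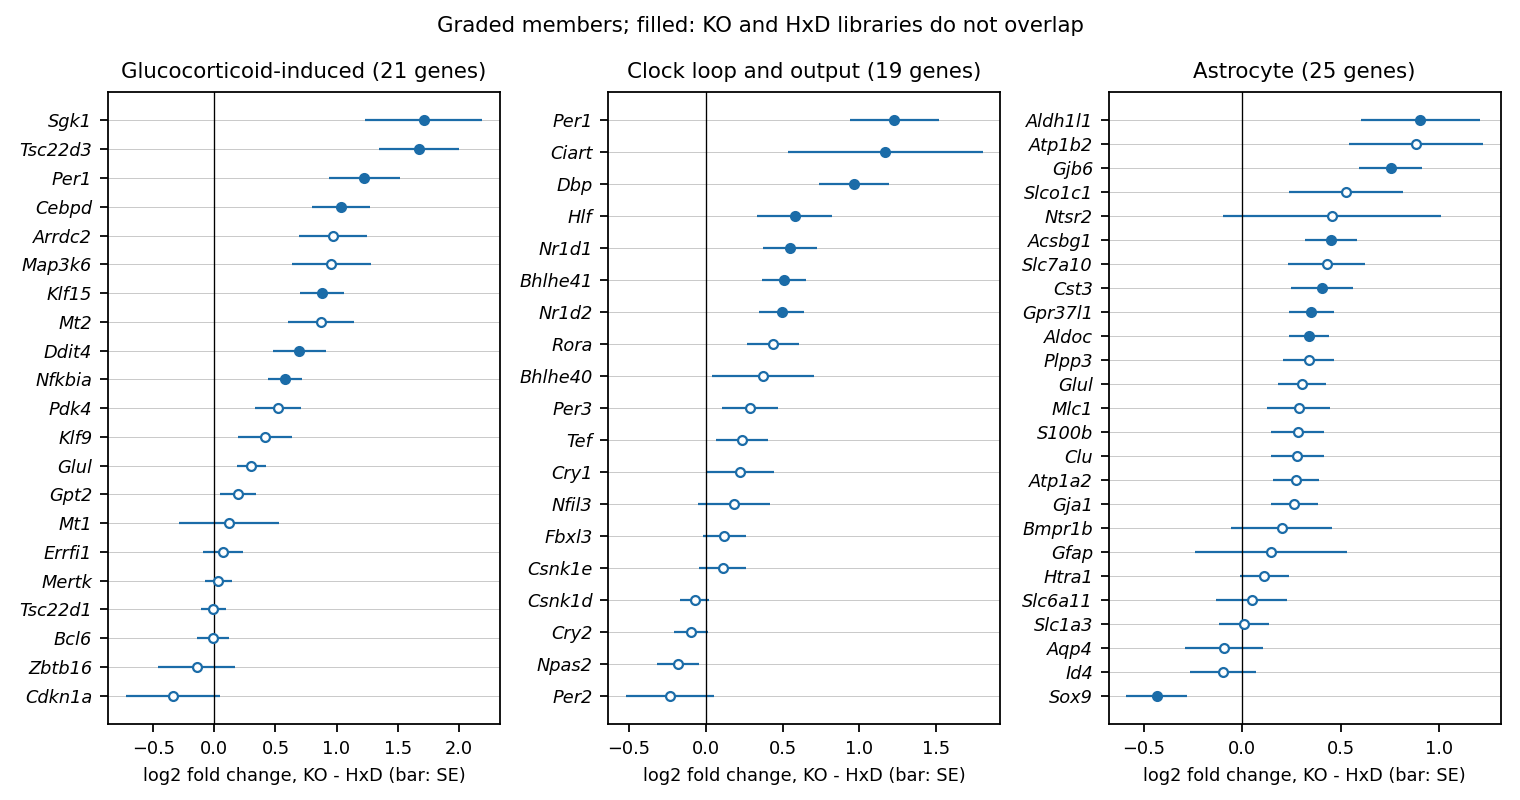
Log2 fold change of KO against HxD with its standard error for the graded members of the glucocorticoid list (21), the clock loop and output lists (19) and the astrocyte list (25). Filled points mark genes whose KO and HxD libraries did not overlap, such as Sgk1, Tsc22d3 and Per1 on the higher side and Sox9 on the lower.

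Astrocyte genes were mostly higher in KO by small amounts. Of 25 graded members, 22 lay above 0 with a median of 0.29, 11 had an unadjusted p below 0.05 in the higher direction and 1 in the lower. By edgeR and limma-voom 0 passed the threshold, and by DESeq2 2 did, Gjb6 and Acsbg1. The scores were -0.14 to 0.01 in HxD and 0.06 to 0.28 in KO without overlap, while WT spread from -0.24 to 0.11. Summed over the 30 tested genes of the list, levels were 15141 to 16306 CPM in HxD, 18033 to 20438 in KO and 14786 to 18609 in WT. In bulk tissue, more cells of a type and more RNA per cell cannot be told apart.

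Gjb6, a connexin of astrocyte gap junctions, stood at 60.9, 70.6, 55.4 and 74.2 CPM in HxD and at 138, 113, 96.5 and 93.3 in KO (log2 fold change 0.75 ± 0.16, edgeR adjusted p = 0.0617). Acsbg1, an acyl-CoA synthetase, stood at 335, 344, 295 and 325 CPM against 481, 383, 399 and 513, and Aldoc, the aldolase of astrocytes, at 1380.4 ± 142 against 1746 ± 118 (SD, n = 4). Neither gene's libraries overlapped. Glul, which makes glutamine, and Gja1, the main astrocyte connexin, stood at log2 fold changes of 0.30 ± 0.12 and 0.26 ± 0.12 (adjusted p = 0.367 and 0.428). The list did not move as one. Slc1a3, the glutamate transporter GLAST, lay at 0.01 ± 0.13, the water channel Aqp4 at -0.09 ± 0.20, and Gfap, the intermediate filament of reactive astrocytes, at 0.15 ± 0.39. Sox9, the astrocyte transcription factor, stood lower at 65 ± 10.6 CPM against 87.8 ± 17.4. The list median was 0.39 without HxD 1 and HxD 3 and 0.30 without HxD 2 and HxD 4, and the 11 at an unadjusted p below 0.05 became 7 without HxD 4 or without KO 4.

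Myelin genes showed how far the HxD libraries differ among themselves. All 26 graded members lay above 0 with a median of 0.48, yet 1 had an unadjusted p below 0.05 and 0 passed the threshold in edgeR, limma-voom or DESeq2. Cnp, an enzyme of myelin membranes, stood at 191, 402, 189 and 232 CPM in HxD 1 to 4 and at 403, 433, 357 and 393 in KO 1 to 4 (log2 fold change 0.65 ± 0.30, edgeR adjusted p = 0.445). HxD 2 lay within the KO range, while the other HxD libraries lay below it. The list median was 0.12 with 17 of 26 above 0 without HxD 1 and HxD 3, and 1.05 without HxD 2 and HxD 4. For myelin genes the direction of this shift was fixed in advance, since HxD 1 and HxD 3 have the lowest myelin sums. Without HxD 2 alone the list median was 0.75, with 16 at an unadjusted p below 0.05 in edgeR. Precursor genes of the lineage had no stable direction, with a median of -0.09 and 5 of 14 above 0, which was 0.24 without HxD 1 and HxD 3 and -0.28 without HxD 2 and HxD 4.

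Markers of projection neurons of the striatum, which lies beneath the cortex, lay lower in KO. Of 11 graded members 1 lay above 0, the median was -0.69, and 7 had an unadjusted p below 0.05, all lower. Over all 20 tested markers, 9 of them not graded, the median was -1.56. Without HxD 3 alone the graded median was -0.44 with 2 at an unadjusted p below 0.05, and that count was 3 without KO 2 and 4 without KO 3 or KO 4. None passed the threshold in edgeR or limma-voom, and 2 did in DESeq2, Penk and Actn2. Penk, the precursor of enkephalins, stood at 153, 100.2, 224 and 46.9 CPM in HxD 1 to 4 and at 49.3, 23.9, 29.3 and 37.8 in KO 1 to 4. HxD 3 was the highest and HxD 4 lay within the KO range (log2 fold change -1.90 ± 0.42, edgeR adjusted p = 0.075). The list score was 1.07 in HxD 3 against -0.31 to 0.45 in the other HxD libraries, and the dopamine receptor Drd1 was listed at 0 in KO 1, KO 2 and KO 3, where a 0 may be a failed estimate. Summed over 20 tested markers, levels were 1154 to 2786 CPM in HxD and 994 to 1300 in KO. Without HxD 1 and HxD 3 the median was -0.24, and without HxD 2 and HxD 4 it was -1.02. The 10 graded hippocampal markers had a median of -0.27, which was 0.15 without HxD 1 and HxD 3 and -0.75 without HxD 2 and HxD 4, and all 16 tested had a median of -0.77.

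Of 9 tested markers of choroid plexus and ependyma, the secretory lining of the ventricles and its neighbours, 4 were graded, with a median of -0.74 against -0.98 for all 9. They summed to 294, 60.2, 38.5 and 18.4 CPM in HxD 1 to 4 and to 9.84 to 27.4 in KO, so that HxD 4 lay within the KO range. None had an unadjusted p below 0.05 in edgeR or passed in limma-voom or DESeq2, and the graded median was -0.21 without HxD 1 and HxD 3. For interneuron genes the median was -0.07, and 7 of 21 lay above 0. Gad2, which makes GABA, stood at 286, 241, 436 and 229.5 CPM in HxD and at 190.1, 195, 204 and 208 in KO, whereas Gad1 lay at a log2 fold change of 0.06 ± 0.11. The median of microglia and complement genes was -0.05, and 0.11 without HxD 1 and HxD 3. Cx3cr1, the fractalkine receptor of microglia, stood at 90, 80.5, 100.2 and 80.1 CPM against 49, 60.1, 72 and 60.8 without overlap (log2 fold change -0.54 ± 0.16, edgeR adjusted p = 0.252), while the microglial marker Tmem119 lay at -0.05 ± 0.12. Vessel endothelium had a median of 0.09 with 11 of 15 above 0, and 3 members higher and 2 lower at an unadjusted p below 0.05 in edgeR. Its 20 tested genes summed to 619 to 649 CPM in HxD and 610 to 933 in KO. Cldn5, the claudin of the blood-brain barrier, stood lower in KO, at 71.8 ± 21.2 CPM in HxD and 47.1 ± 10.5 in KO. Without KO 1 the endothelial median was -0.05. Layer lists of excitatory neurons had medians of 0.15, -0.05 and 0.02 for layers 2/3 and 4, layer 5 and layer 6. The first turned with the HxD libraries, to -0.10 without HxD 1 and HxD 3 and 0.57 without HxD 2 and HxD 4. Layer 5 was at -0.15 and -0.17 and layer 6 at 0.01 and -0.12 in these settings.

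Ionotropic glutamate receptor genes lay lower in KO. NMDA receptors are built from an obligate GluN1 subunit with GluN2 or GluN3 subunits, and AMPA receptors carry most fast excitatory transmission. All 4 graded NMDA subunit genes lay below 0 with a median of -0.46, and 3 had an unadjusted p below 0.05, while 0 passed in edgeR, limma-voom or DESeq2. Grin2b, the GluN2B subunit, stood at 1062, 595, 742 and 743 CPM in HxD and at 629.8, 458, 488 and 619 in KO, so that HxD 2 overlapped the KO range (log2 fold change -0.52 ± 0.20, edgeR adjusted p = 0.355). Grin1, the obligate subunit, stood at 274, 301, 264 and 282 CPM against 226, 166, 276 and 181 (-0.40 ± 0.16, adjusted p = 0.377). KO scores ran from -0.37 to -0.19, just under the lowest HxD score in a range of -0.18 to 0.43.

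Of 16 graded AMPA and kainate receptor and auxiliary genes, 3 lay above 0 and the median was -0.36. At an unadjusted p below 0.05 there were 5, all lower, and 0 passed in edgeR or limma-voom against 2 in DESeq2, Shisa9 and Neto1. Shisa9, an auxiliary AMPA receptor subunit, stood at 94.6, 52.6, 82.3 and 66.6 CPM in HxD and at 45.4, 40.1, 56 and 33.8 in KO (log2 fold change -0.76 ± 0.21, edgeR adjusted p = 0.195). Gria1, the GluA1 subunit, had 649.8, 280.2, 524 and 261 CPM in HxD and 279, 290.1, 239.7 and 231 in KO. HxD 1 and HxD 3 carried that difference, and HxD 2 and HxD 4 lay at the level of the KO libraries. Neto1, an auxiliary kainate receptor subunit, stood at 249, 143, 163 and 184 CPM against 116, 111, 139 and 129 without overlap (-0.58 ± 0.17, adjusted p = 0.24). Without HxD 1 and HxD 3 the medians were -0.34 for NMDA subunits, with 0 at an unadjusted p below 0.05, and -0.21 for AMPA and kainate genes, with 2. The count of NMDA subunits at that p was 1 without KO 2, and that of AMPA and kainate genes was 3 without HxD 3.

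Synaptic adhesion genes had a median of 0.00 over 25 graded members with 12 above 0, yet their scores did not overlap, 0.02 to 0.19 in HxD and -0.20 to -0.01 in KO. This median moved with single libraries, to -0.25 with 7 above 0 without KO 4, -0.16 without HxD 2 and -0.14 without HxD 1, and over all 36 tested members it was -0.15. Cadm1 was the member called, and 5 members had an unadjusted p below 0.05, all lower. Lrfn2, an adhesion protein that binds the postsynaptic scaffold, stood at 60.2, 59.8, 55.9 and 53.2 CPM in HxD and at 23.6, 26.5, 41.7 and 21.5 in KO. Its adjusted p of 0.0508 in edgeR's test just missed the threshold (log2 fold change -1.01 ± 0.21). Slitrk5, a leucine-rich repeat adhesion protein, stood at 136, 121, 135 and 147 CPM against 104, 96.3, 112 and 104 (adjusted p = 0.105). Of 18 postsynaptic scaffold and CaMKII genes, 9 lay above 0 with a median of -0.01, and 0 passed at an unadjusted p below 0.05 in edgeR or at the threshold in limma-voom or DESeq2. Of 46 synaptic vesicle and release genes, 18 lay above 0 with a median of -0.10, and their members moved both ways. Syn2 rose as given above, while Erc2, a scaffold of the active zone, stood at 53.5, 131, 155 and 145 CPM in HxD and at 5.14, 31.1, 11 and 24.3 in KO (-2.76 ± 0.69, adjusted p = 0.144). Erc2 varied in WT as well, from 40.3 to 262 CPM.

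Ribosomal protein genes lay higher in KO nearly throughout. Of 48 graded genes of the large subunit 46 lay above 0 with a median of 0.30, and 19 had an unadjusted p below 0.05, all higher. Of 29 genes of the small subunit 28 lay above 0 with a median of 0.34, and 9 had an unadjusted p below 0.05. The 19 became 5 without KO 2, 6 without HxD 4, 7 without KO 3 and 8 without HxD 3, and the 9 became 2 without KO 2 or HxD 4, 4 without HxD 3 and 5 without KO 3. With those libraries left out the medians stayed between 0.23 and 0.35. In edgeR and limma-voom 0 members passed the threshold. DESeq2, which called 237 of all 9345 graded genes, called 1 member, Fau. This gene, which encodes a small subunit protein fused to a ubiquitin-like peptide, stood at 39, 58.9, 47.8 and 42.7 CPM in HxD and at 104, 78.3, 83.3 and 58.9 in KO (log2 fold change 0.78 ± 0.18, adjusted p = 0.104). Rps3, a small subunit protein, stood at 379, 419, 365 and 404 CPM against 496, 524, 478 and 483 (0.34 ± 0.11, adjusted p = 0.272). Neither of the 2 lists' scores parted the genotypes, since the large subunit scores were -0.04, 0.05, -0.16 and -0.28 in HxD and 0.07, 0.46, 0.35 and -0.07 in KO.

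These scores moved in part with a trend of each library on transcript length. The slope of a gene's centred log2 level on log2 transcript length was 0.014, -0.061, 0.043 and 0.058 in HxD 1 to 4 and -0.001, -0.089, -0.069 and 0.011 in KO 1 to 4. KO 2 and KO 3, with the lowest slopes, had the highest ribosomal scores. HxD 2 had a slope near that of KO 3, yet its large subunit score of 0.05, the highest in HxD, lay under that of KO 3. With the trend removed, the medians were 0.14 for the large and 0.20 for the small subunit, with 41 of 48 and 25 of 29 above 0. Respiratory complex I had a median of 0.21 with 25 of 33 above 0, and complexes II to IV with ATP synthase had 0.18 with 20 of 23 above 0. Those medians were 0.06 and 0.05 with the length trend removed. Only 25 of the 57 symbols listed for complexes II to IV and ATP synthase stood in the count table, against 37 of 38 for complex I. The median of complex I was 0.12 without KO 2 and 0.13 without HxD 3. In edgeR Uqcr10 was the 1 graded respiratory gene past the threshold, and its call was lost with the length trend removed. The DESeq2 Wald test called Uqcr10 and also Ndufb10 of complex I, which was lower in KO. Mitochondrial ribosomal proteins had a median of 0.06, and translation factors 0.02.

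**Figure D4:**
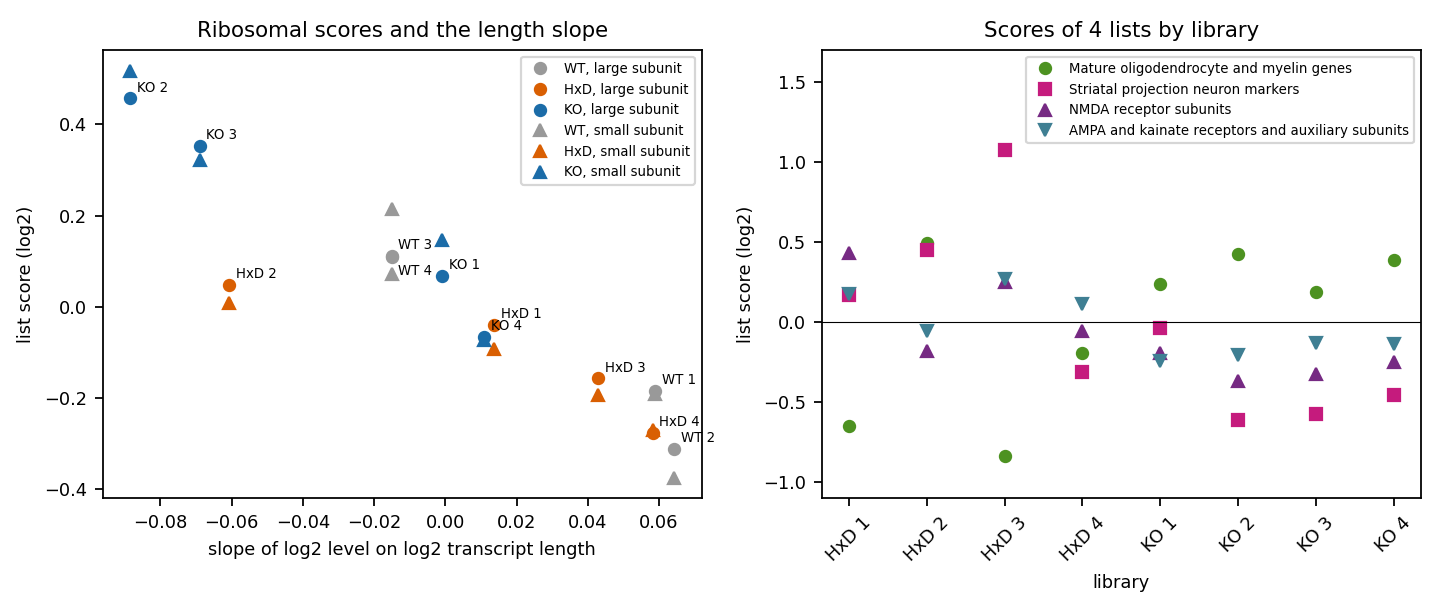
Left, scores of the large (circles) and small (triangles) subunit ribosomal lists against each library's slope of log2 level on log2 transcript length, where KO 2 and KO 3 sit at the lowest slopes with scores of 0.46 and 0.35 for the large subunit. Right, scores of 4 lists in the 8 libraries, where the myelin score is -0.65 in HxD 1 and -0.84 in HxD 3 and the striatal score is 1.07 in HxD 3.

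Cholesterol genes moved in both directions. Of 30 graded members 16 lay above 0 with a median of 0.02, with 5 higher and 2 lower at an unadjusted p below 0.05. Beside Fdft1, Insig1, which retains the sterol sensor in the endoplasmic reticulum, stood at 108, 125, 109.7 and 154 CPM in HxD and at 204, 168, 166 and 222 in KO (log2 fold change 0.61 ± 0.17, edgeR adjusted p = 0.214). Idi1, Cyp51 and Msmo1, enzymes of the pathway, had log2 fold changes of 0.51 ± 0.14, 0.43 ± 0.12 and 0.25 ± 0.07. Fdps, the farnesyl diphosphate synthase just before Fdft1, stood lower at 64.7 ± 3.01 CPM against 78.7 ± 3.39 (SD, n = 4, adjusted p = 0.211). Chaperone genes had 11 of 42 above 0 with a median of -0.11, and axon guidance genes 9 of 32 with -0.21, which was -0.06 without HxD 1 and HxD 3, -0.35 without HxD 2 and HxD 4 and -0.10 without HxD 1.

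Among genes of DNA methylation, 10 were graded, 5 lay above 0 and the median was -0.02, or -0.20 without HxD 1 and HxD 3. By edgeR and limma-voom 0 passed the threshold, and by DESeq2 2 did, Mbd2 and Zbtb33. Tet2, a related dioxygenase, stood at 23.8, 25.3, 53.5 and 61.3 CPM in HxD 1 to 4 and at 45.6, 38.3, 21.1 and 42.5 in KO 1 to 4. Its libraries spread within HxD more than between the genotypes (log2 fold change -0.15 ± 0.33, edgeR adjusted p = 0.919). Mbd2, a methyl-CpG binding subunit of NuRD, stood at 58.5, 64.1, 57 and 56.9 CPM in HxD and at 77.2, 72.1, 68.9 and 73.5 in KO without overlap. The change was small (0.30 ± 0.09, adjusted p = 0.222). Zbtb33, the methyl-CpG binding factor Kaiso, stood at 52.4, 48.2, 47.2 and 50.9 CPM against 39, 41.8, 45.1 and 34.8, also without overlap (-0.30 ± 0.10, adjusted p = 0.261). Of 24 graded PRC2, SIN3 and NuRD subunit genes 16 lay above 0 with a median of 0.08, and 0 passed the threshold in edgeR, limma-voom or DESeq2. At an unadjusted p below 0.05 in edgeR there were 3 of the 24, near the 11.8% of all graded genes. The median was 0.01 without KO 2. The scores of these subunits did not overlap, -0.04 to 0.01 in HxD and 0.01 to 0.11 in KO. Sin3b, a scaffold of the SIN3 complex, and Aebp2, a PRC2 cofactor, had log2 fold changes of -0.38 and -0.35, and Sap30 of the SIN3 complex had 0.47. Histone methyltransferases and demethylases had a median of -0.01 with 11 of 22 above 0, and 0 passed at an unadjusted p below 0.05 in edgeR or at the threshold in limma-voom or DESeq2. Clustered protocadherins, which share constant exons so that reads between them are uncertain, had a median of 0.04 with 26 of 45 above 0.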

How the data were processed

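Column-purified RNA of adult cortex was enriched for mRNA with oligo d(T), per the labels' protocols. The tools listed, per the submitters' processing notes, are STAR 2.7.1a, StringTie 2.2.3, SAMtools 1.9, Trim Galore 0.6.7 and FastQC, with GRCm39 and mm10 as builds and no role for any. How reads were assigned to genes is not given in the sources used here, nor is the strand setting. Values deposited by the authors are whole-number estimated counts, not normalized, with 1 per row in each library. Of 21769 rows, the 56 of 25 repeated symbols were dropped.

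Genes were tested with edgeR 4.0.16 (R 4.3.3, robust quasi-likelihood fit, TMM factors, filterByExpr with minimum count 10) on all 12 libraries, genotype as the only term, 9 residual degrees of freedom, contrast KO minus HxD, two-sided. Fold changes of KO against HxD are from this fit. CPM values were computed per TMM-scaled sum of tested genes, and 0.5 was added before log2 values of single libraries. No molecular identifiers are stated, so reads need not be separate molecules and depth bears on counting error alone.

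The comparison, the lists and the limits on graded genes were chosen with earlier results of these data known. Named were Tet1 to Tet3, the 15 higher and 15 lower graded calls and the 12 higher and 12 lower non-overlapping graded genes of at least 5 CPM with the smallest p, up to 4 called or 3 other members of each list, and 4 higher and 4 lower genes that were not graded. Further list members were chosen after their values were seen, and the rule covers further genes whose values are not reported here. The fit was also run on simulated counts of known fold changes, drawn with its own estimate of the spread. That run does not check how well the fit suits these data. Transcript lengths were the longest per symbol in GENCODE, known for 9328 of the 9345 graded genes. A check of promoter CpG content was void because 7366 of the 9345 graded genes (78.8%) had a promoter window in the RefSeq table.

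Alternatives were other normalizations and filters, the 8 libraries alone, the replicate block, 1 surrogate variable (sva 3.50.0), the length trend removed, pairs of HxD libraries or each library left out, thresholds of 0.01 and 0.1, other fold limits, DESeq2 1.42.0 and limma-voom (limma 3.58.1).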

Additional observations from a re-analysis of the deposited data

Results flagged for a closer look

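In groups of 4 libraries, 1 library lay far from the other 3 in 22 of 474 groups of named graded genes and list scores examined, 4.64%, where chance alone gives about 1 in 20 (the gap to the nearest library over the range, past Dixon's limit).

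Among list scores, KO 1 stood at 0.63 for glucocorticoid-induced genes against 0.27 to 0.32 in the other KO libraries. KO 3 stood at -0.20 for interferon and innate immune genes against 0.21 to 0.28, and at 0.042 for lysosome and autophagy genes against -0.02 in the other 3. HxD 2 stood at 0.0082 for hypoxia and angiogenic genes against 0.04.

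Among genes that were called, Cadm1 stood at 26.7 CPM in HxD 1 against 18.7 to 19.7, and at 7.36 in KO 1 against 2.81 to 3.42. Sparcl1 stood at 3759 CPM in HxD 2 against 3307 to 3379. The other high libraries were KO 1 for Actn2, an actinin, at 9.76 CPM and for Dlgap4, a postsynaptic scaffold, at 12.5. HxD 3 was high for Sox8, a glial transcription factor, at 76.2 CPM and for the imprinted gene Peg10 at 89.8 against 16.5 to 26.9. HxD 1 was high for the chaperonin Hspd1 at 235 CPM and the proton pump subunit Atp6v0a1 at 809. KO 4 was high for Xylt1 at 108 CPM and the acetylcholine receptor Chrna7 at 18.4.

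Libraries that lay low were KO 2 for the dynein subunit Dync1li1 at 95.8 CPM and for Nptxr, the neuronal pentraxin receptor, at 520.1. KO 4 was low for the layer 5 transcription factor Bcl11b at 75.3 CPM, KO 1 for the Notch target Hes5 at 12.2, and KO 3 for Akt1 at 320.5, Chrnb2 at 83.2 and the globin Hbb-bs at 141.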

How the results depend on the processing

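The 119 calls and the 31 graded calls did not keep their size under every setting. A minimum of 10 counts in all 8 libraries gave 37 and 20. The DESeq2 Wald test gave 398 and 237, and limma-voom gave 84 and 26. Without HxD 2 and HxD 4 there were 180 and 85, and without HxD 1 and HxD 3 104 and 19. The graded count was 16 with only the 8 libraries, 19 with 1 surrogate variable, 9 at an adjusted p below 0.01, 52 below 0.1, 19 with a 4-fold limit and 63 with no limit other than being above 0. Leaving out 1 library gave 97 to 137 calls, and 13 to 44 graded calls, the fewest without KO 2 (13), HxD 3 (14) and KO 1 (16), and 19 or 20 without WT 2, HxD 1, HxD 4 or KO 4. The replicate block gave 95 and 23, with 16 of the 31 kept. Same-numbered KO and HxD libraries deviated with correlations of -0.076, -0.073, -0.013 and 0.075, and 1 of 4 KO libraries correlated best with its own number. WT was not in this check, and whether the numbers mark a batch was not tested. With the replicate block the myelin median was 0.54, with 8 members at an unadjusted p below 0.05 in edgeR against 1 in the main fit.

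Directions turned for some genes, none of them among the graded calls. Without HxD 1 and HxD 3 the log2 fold change was 0.14 for Calb2, 0.23 for Kcna5 and 0.30 for Sostdc1, and that of Tet2 was 0.00034, 0.10 and 0.04 without HxD 3, HxD 4 and KO 3, in a range down to -0.35 with 1 library left out. The causes were not tested. The median over graded genes stayed between -0.01 and 0.02 in all settings.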

Other observations

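Several further groups held members with an unadjusted p below 0.05, and none of the genes named here was past the threshold in edgeR or limma-voom. The DESeq2 Wald test called Atp6v0d1, Atp6v0c, Psmb2, Psmd11, Psmd1, Kif5b, Dync1li1 and Dusp5. KO and HxD libraries did not overlap for the named genes other than Atp6v1b2, Kif5c, Atp6v0b and Atp6v1e1. As the genes were picked by their values, this does not set their lists apart. Members without overlap, higher and lower, were 0 and 4 of 40 for lysosome and autophagy and 2 and 4 of 40 for the proteasome. They were 2 and 3 of 41 for motors and tubulins and 3 and 0 of 13 for Dusp phosphatases, against 4.16% and 3.43% of all graded genes. In the lysosome and autophagy list 24 of 40 members lay above 0 with a median of 0.04. Of its subunits of the vacuolar proton pump, which acidifies lysosomes and synaptic vesicles, Atp6v0d1, Atp6v0a1, Atp6v0c and Atp6v1b2 had log2 fold changes of -0.26, -0.27, -0.21 and -0.20, while Atp6v0b and Atp6v1e1 had 0.08 and 0.05. Among proteasome genes, 19 of 40 above 0, Psmb10, an inducible catalytic subunit, stood at 0.43, while Psmb2, Psmd11 and Psmd1 stood at -0.27, -0.21 and -0.15. Among motor and tubulin genes, 20 of 41 above 0, the kinesin heavy chains Kif5b, Kif5a and Kif5c stood at 0.58, 0.40 and 0.28, whereas the dynein subunits Dync1li1 and Dynll1 stood at -0.38 and -0.33. Dusp5, a phosphatase of ERK that activity induces, stood at 19.5, 27.3, 13.5 and 28.3 CPM in HxD and at 50.4, 52, 39 and 37.4 in KO (log2 fold change 1.01 ± 0.26, edgeR adjusted p = 0.154). These genes were chosen after their values were seen, from 4 lists whose medians lay between -0.02 and 0.06.

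Among graded genes with an unadjusted p below 0.05, the longest transcript of a gene had a median length of 2907.5 bases for those higher in KO and 3959 bases for those lower, against 3299 for all graded genes. Of those 1104 genes, WT was nearer HxD for 825 and nearer KO for 279, while over all graded genes it was nearer HxD for 60.1%. These are values of the same libraries and not independent of the fit.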
